A study of Mus musculus with 15 samples.

Results

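The 78 genes described here encode the proteins of the mitochondrial ribosome. They are all genes of the table whose symbol begins with Mrpl or Mrps followed by a digit, 49 and 29 genes, and they are 78 of 20453 named genes. Each gene is represented by its RefSeq transcript with the highest mean count. The symbols do not map exactly onto the subunits: 51 of the encoded proteins sit in the large subunit and 26 in the small one, with the Mrps30 and Mrps18a proteins in the large subunit. The remaining gene, Mrps36, is named for the small subunit, but its protein is known as a component of the oxoglutarate dehydrogenase complex.

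The mitochondrial ribosome is built from nuclear-encoded proteins, imported from the cytosol, and rRNAs transcribed from mitochondrial DNA. It translates a small set of membrane proteins that are core subunits of respiratory chain complexes and of the ATP synthase, so its protein genes are commonly read together with those of complex I. Many of its proteins descend from bacterial ribosomal proteins (46 of the 78 genes), and others were added in the mitochondrial lineage (31 genes).

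Bone marrow cells sorted from C57BL/6 mice gave RNA-seq libraries in 4 groups, named wtGMP (4 libraries), LTearly (4), LTlate (3) and BMTGMP (3). The mutant line carries a cDNA of the human fusion gene MLL-AF9, an oncogene of acute myeloid leukaemia, placed by Cre recombination into embryonic stem cells that had been given doxycycline. Chimeras were backcrossed to C57BL/6, and double heterozygous females were used. Marrow was depleted of cells bearing Ter119, Gr-1, B220, Cd11b or Cd5 and sorted by 2 gates, 1 for granulocyte-macrophage progenitors (GMPs: c-Kit+, Cd34+, high for FcγRII/III, without Sca-1 or IL-7Rα) and 1 for long-term stem cells (Sca-1+, c-Kit+, Cd150+, without Cd34 or Cd48). The labels do not spell out LTearly, LTlate or BMTGMP, give no gate, transgene promoter, age or induction per library, and give all libraries, wtGMP included, the same text on the mouse line, so the wild-type state of wtGMP rests on its name. Nothing states that the libraries of a group came from separate animals, so the p-values measure the spread between these libraries. A further library, titled LTearly but named LTlate in the table's column, was kept outside the groups and is shown apart.

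Reads assigned to named genes numbered 2469452 to 6978682 in wtGMP, 2696036 to 8695227 in LTearly, 11569325 to 15092528 in LTlate and 4555960 to 10712578 in BMTGMP. Of these, 5955 to 33661 per library fell on the 78 genes. The wtGMP libraries carried the progenitor markers of their name. The summed level of 7 progenitor markers (Kit, Cd34, Fcgr3, Mpo, Elane, Prtn3 and Flt3) was 17995 to 21373 CPM (counts relative to the TMM-scaled total of the library) in wtGMP, 1073 to 6112 in LTearly, 1290 to 1559 in LTlate and 7189 to 10983 in BMTGMP. The 7 did not all move alike. By the sign of the fold change against wtGMP, 5 were lower and 2 higher in both LTearly and LTlate. In BMTGMP 6 were lower and 1 higher. The 5 stem cell markers summed to 0 to 6.37 CPM in wtGMP and 22.6 to 47.4 CPM in LTearly. They summed to 0 to 7.19 CPM in LTlate, 1.31 to 24.3 CPM in BMTGMP and 103 CPM in the library outside the groups. Slamf1, which encodes Cd150, was at 0 in every wtGMP and LTlate library. The 9 late neutrophil markers (Ngp, Ltf, Camp and others, all with counts in every group) summed to 26.8 to 62.4 CPM in wtGMP, 7108 to 14272 in LTearly, 3263 to 6154 in LTlate and 849 to 4108 in BMTGMP. The genes chosen for the surface proteins used in the depletion, Ptprc and Itgam among them, summed to 356 to 458 CPM in wtGMP. Their sums were 1793 to 3308, 2033 to 2829 and 1139 to 1337 CPM in LTearly, LTlate and BMTGMP. Counts per gene do not single out the B220 form of Ptprc, so this sum does not measure depleted cells alone. The macrophage markers summed to 192 to 240, 358 to 569, 407 to 632 and 138 to 320 CPM in the order wtGMP, LTearly, LTlate, BMTGMP, and those of eosinophils, basophils and mast cells to 154 to 274, 8.31 to 31.1, 91.7 to 317 and 2.73 to 7.01 CPM. The B cell, T and NK cell, erythroid and megakaryocyte markers each summed to at most 25.3 CPM in every grouped library. These marker levels moved with the groups compared, and their part in the results on the ribosomal genes was not tested. In sorted bulk RNA, fewer cells of a type and less RNA per cell cannot be told apart.

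The 78 genes together were most abundant in wtGMP and least abundant in LTearly. Their summed level was 3046, 3069, 3696 and 3146 CPM in the 4 wtGMP libraries and 1676, 1751, 2156 and 1875 CPM in the 4 LTearly libraries. LTlate gave 2130, 2408 and 2306 CPM, and BMTGMP gave 2791, 2864 and 2146 CPM. Every mutant library lay below every wtGMP library, and BMTGMP replicate 4 lay within the LTearly and LTlate values while its 2 companions stood above all of them. Group means were 3239 ± 307 (SD, n = 4), 1864 ± 211 (n = 4), 2281 ± 141 (n = 3) and 2600 ± 395 CPM (n = 3) in the order wtGMP, LTearly, LTlate, BMTGMP. LTearly and LTlate differ in mean by more than either SD, but LTearly replicate 3 exceeded LTlate replicate 2. A sum over the 78 genes was given no test, because the genes were chosen with earlier results of these data known. The library outside the groups summed to 1923 CPM, within the LTearly range and below the 3 LTlate libraries.

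**Figure D1:**
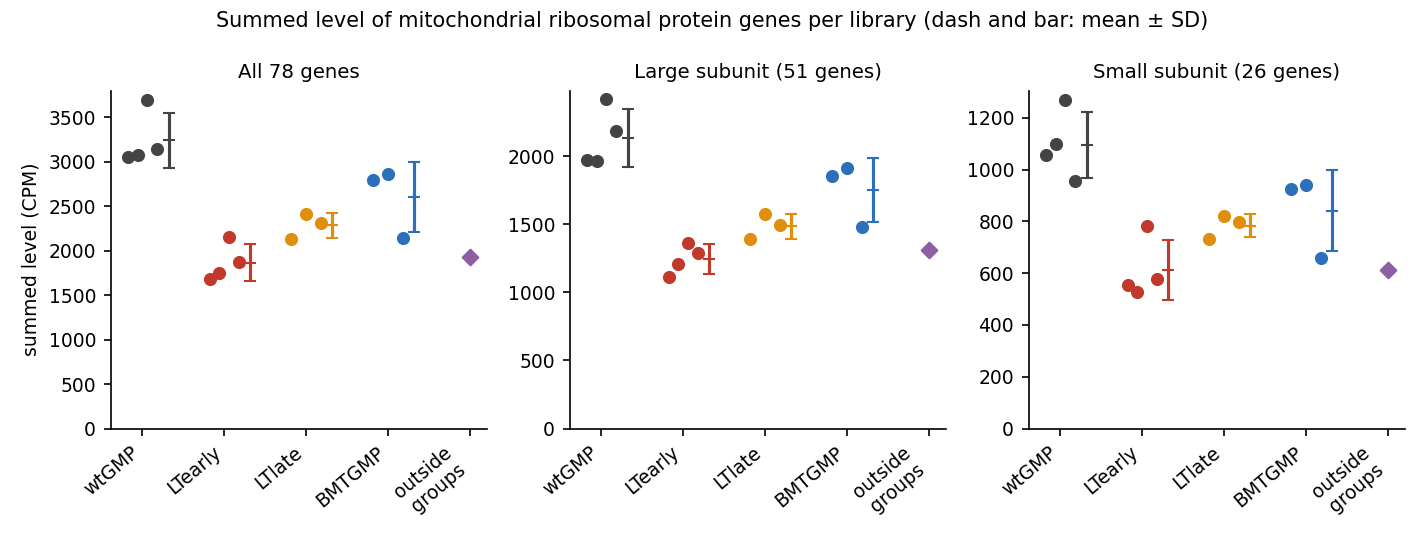
Summed level in CPM (vertical axis, from 0) of all 78 genes, of the 51 large-subunit genes and of the 26 small-subunit genes, 1 point per library in each group, with the mean ± SD beside the points and the library outside the groups as a diamond. All wtGMP libraries lie at 3046 CPM or above in the left panel, and all other libraries lie at 2864 CPM or below.

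Both subunits followed this order. Large-subunit genes summed to 1963 to 2418 CPM in wtGMP and 1115 to 1365 CPM in LTearly, and small-subunit genes to 957 to 1267 and 529 to 783 CPM. The ratio of the large to the small sum was 1.79 to 2.28 in wtGMP, 1.74 to 2.29 in LTearly, 1.88 to 1.92 in LTlate and 2 to 2.25 in BMTGMP, so the groups overlapped. Gene by gene, wtGMP had the highest group mean for 56 of the 78 genes and LTearly the lowest for 53. The order wtGMP, BMTGMP, LTlate, LTearly from high to low held for 27 genes, more than any other order. Orders of the group means were not counted over all genes. Neighbours in the order held by the 27 genes were often not separated. No gene passed the test between LTlate and LTearly or between LTlate and BMTGMP, as given below.

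Levels per kilobase of transcript spanned a wide range among the 78 genes. The highest were Mrpl42 (161 CPM per kilobase, mean of the 14 grouped libraries), Mrpl33 (124) and Mrpl18 (112), and the lowest were Mrpl47 (3.29), Mrps16 (3.30) and Mrpl14 (3.99). Transcript lengths came from a later annotation of the same accessions, so a low value per kilobase can include a longer transcript version than the one counted. The median coefficient of variation of a gene between libraries of a group was 30.4% in wtGMP, 30% in BMTGMP, 26.9% in LTlate and 37.7% in LTearly. Mrpl42 varied least in wtGMP (6%) and Mrpl14, with the fewest counts, varied most (170%).

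In LTearly against wtGMP, 21 of the 78 genes fell and none rose (edgeR's quasi-likelihood test, with a Benjamini-Hochberg adjusted p over 14542 genes under 0.05). They included the large-subunit stalk gene Mrpl12, the core genes Mrpl2, Mrpl3 and Mrpl16, and small-subunit genes such as Mrps5, Mrps10, Mrps22 and Mrps26. Of all genes tested, 9.46% fell and 10.7% rose by the same rule, so 26.9% of the ribosomal genes fell against that background. The median log2 fold change was -0.76 over the 78 genes and 0.19 over all genes. Of the 78, 67 had a value below 0 (85.9%, against 42.9% of all genes). At an unadjusted p under 0.05, 35 were lower (44.9%, against 14.6% of all genes) and 0 higher (18.9% of all genes). DESeq2 called 21 lower (26.9%) and 0 higher, against 10.0% and 15.9% of all genes to which it gave an adjusted p. Without wtGMP replicate 3, the library with the highest sum, 12 genes fell. All 78 genes passed the filter on low counts.

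Mrps5, a small-subunit protein with a bacterial homologue, had the smallest p. Its level was 139, 160, 219 and 101 CPM in wtGMP and 47.9, 45.4, 63.0 and 60.2 CPM in LTearly. Every LTearly library lay below every wtGMP library, and the log2 fold change was -1.52 ± 0.23 (SE; adjusted p = 2.32e-05, edgeR). Mrpl42, a mitochondria-specific protein of the large subunit, was at 156, 177, 158 and 162 CPM in wtGMP and at 36.5, 70.4, 55.4 and 69.5 CPM in LTearly. The wtGMP libraries were tight and the highest LTearly library stayed below them, with a log2 fold change of -1.49 ± 0.23 (edgeR adjusted p = 2.6e-05).

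Mrpl12 encodes the protein of the flexible stalk that brings translation factors to the ribosome, and it is also known to bind the mitochondrial RNA polymerase. It stood at 49.5, 94.0, 67.4 and 70.7 CPM in wtGMP and at 7.59, 18.5, 22.1 and 15.2 CPM in LTearly. The groups did not overlap, and the gene was 4.46-fold lower in LTearly (log2 fold change -2.16 ± 0.35, edgeR adjusted p = 4.13e-05). The largest fall was that of Mrpl21, a large-subunit gene with a bacterial homologue. Its levels were 40.9, 68.5, 39.4 and 40.5 CPM in wtGMP and 7.59, 5.73, 1.45 and 16.7 CPM in LTearly, without overlap, and it was 5.73-fold lower (adjusted p = 0.000275, edgeR). The gene overlaps Ighmbp2 on the annotation.

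Mrpl44, whose protein has a ribonuclease III-like fold and whose human counterpart is mutated in a mitochondrial cardiomyopathy, fell in LTearly as well. Its levels were 35, 37.4, 30.7 and 36 CPM in wtGMP against 5.93, 8.60, 13.4 and 14.4 CPM, with a log2 fold change of -1.71 ± 0.39 (edgeR adjusted p = 0.00196). Mrps26 and Mrps22 are mitochondria-specific proteins of the small subunit. Mrps26 was at 97.9, 108, 116 and 103 CPM in wtGMP and at 36.5, 51.6, 66.6 and 61.0 CPM in LTearly (log2 fold change -0.98 ± 0.21, edgeR adjusted p = 0.00119). Mrps22 was at 61.5, 52.2, 46.6 and 32.8 CPM in wtGMP and at 22.8, 11.5, 23.5 and 23.6 CPM in LTearly (-1.25 ± 0.36, edgeR adjusted p = 0.0137). Neither gene's groups overlapped, and LTearly replicate 2 was the low library for Mrps22. Mrps22 did not pass without that library (edgeR adjusted p = 0.0525) or without wtGMP replicate 1 (0.0629).

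Mrps10, another small-subunit gene with a bacterial homologue, fell from 80.6 ± 12.9 CPM (SD, n = 4) to 34.8 ± 7.35 CPM (n = 4; edgeR adjusted p = 0.00181). The other 13 genes that fell were named after their values were seen: Mrpl39, Mrpl16, Mrpl18, Mrpl3, Mrps25, Mrpl2, Mrpl41, Mrps15, Mrpl49, Mrps24, Mrpl23, Mrps7 and Mrps11. Their log2 fold changes ran from -1.44 (Mrpl16) to -0.68 (Mrpl49), and their edgeR adjusted p from 0.00217 (Mrpl39) to 0.048 (Mrps11). Mrpl39, Mrpl16, Mrpl18 and Mrpl3 passed under all 18 alternative settings, and the other 9 missed the threshold in at least 1 of them, with edgeR adjusted p up to 0.20 for Mrps11. Of the 21 genes, 17 had every LTearly library below every wtGMP library. Over all 78 genes that held for 20, or 25.6%, against 10.8% of all genes tested.

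**Figure D2:**
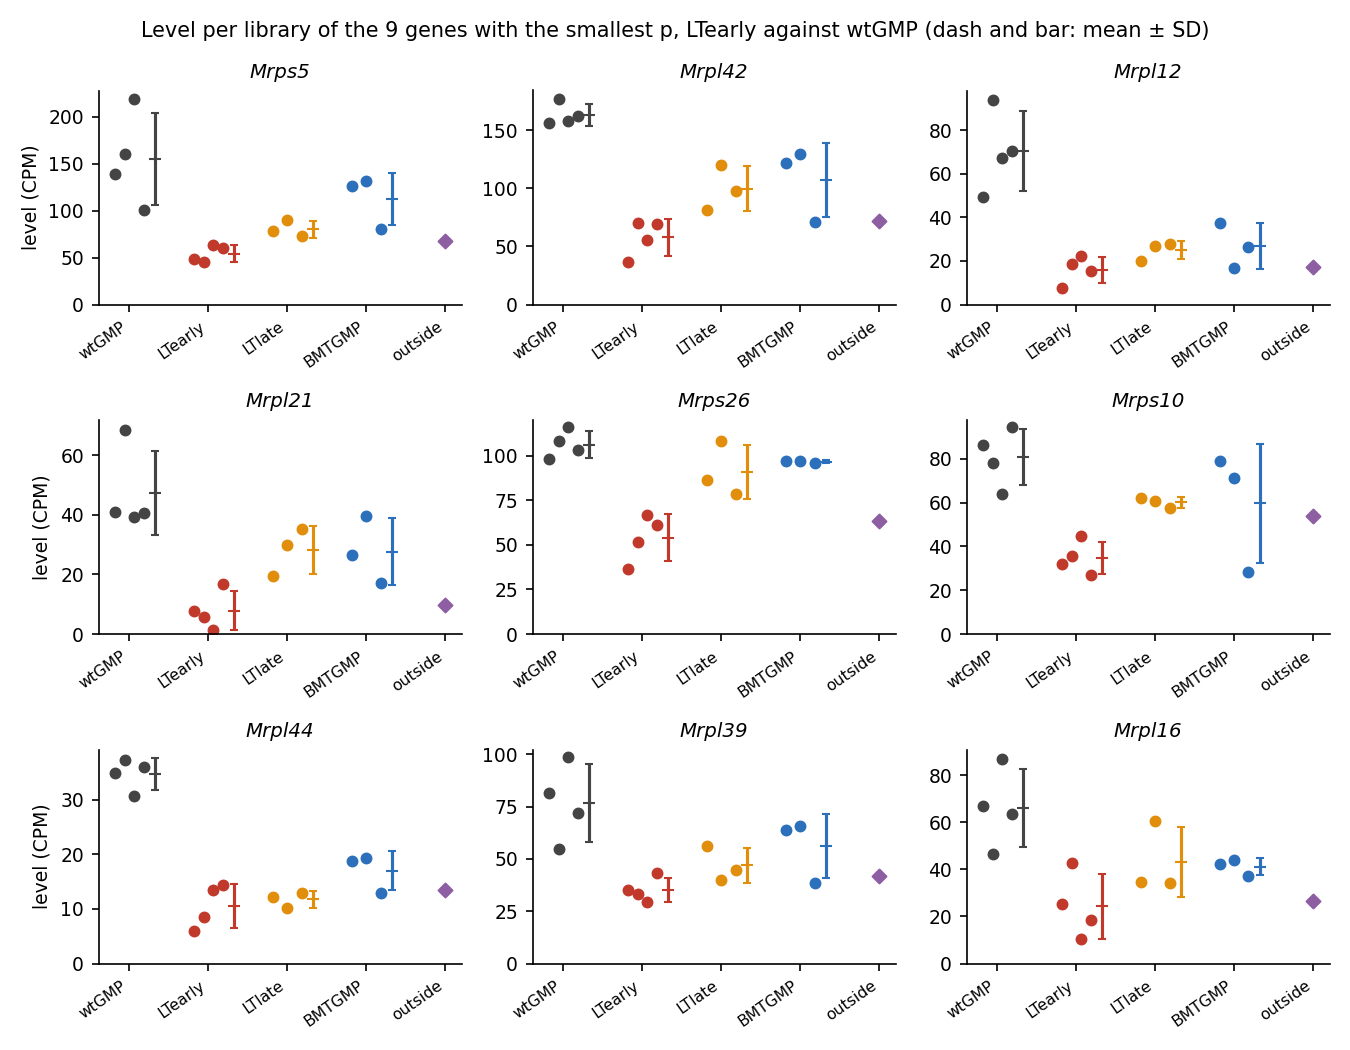
Level in CPM (vertical axes, from 0) of the 9 genes with the smallest p in LTearly against wtGMP, 1 point per library by group, with the mean ± SD beside the points and the library outside the groups as a diamond. In all 9 panels the 4 LTearly points lie below the 4 wtGMP points.

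The fall was spread over the structural classes. It took in 12 of 51 large-subunit genes (median log2 fold change -0.73) and 9 of 26 small-subunit genes (-0.87), and 13 of 46 genes with a bacterial homologue (-0.81) and 8 of 31 mitochondria-specific genes (-0.68). These shares were not tested against each other. The genes that passed the test were the more abundant ones, with a median level of 43.9 CPM against 17.6 CPM for the other 57 genes, and their SEs were smaller (median 0.33 against 0.46). Among those 57, 46 had a log2 fold change below 0 and 11 above, with a median of -0.57. On simulated counts of this comparison, 11% of genes changed 2-fold and 50% of genes changed 4-fold were recovered, so most 2-fold changes in simulated counts were missed. Among the 58 genes that overlap no other coding gene, 14 fell, with a median of -0.85.

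The 11 genes with values above 0 were Mrpl14, Mrpl57, Mrps18c, Mrpl52, Mrpl53, Mrps16, Mrps18b, Mrpl43, Mrps21, Mrpl17 and Mrpl33, and none passed the test. Mrpl33, a large-subunit gene with the second highest level per kilobase, was at 48.4, 55.4, 39.2 and 65.3 CPM in wtGMP and at 30.4, 62.8, 54.7 and 62.0 CPM in LTearly. The groups overlapped, with a log2 fold change of 0.01 ± 0.25. The 3 genes that share the name Mrps18 had values of both signs: Mrps18a had a log2 fold change of -0.68 ± 0.49, Mrps18b of 0.17 ± 0.50 and Mrps18c of 0.57 ± 0.47, and no adjusted p was under 0.363 (edgeR). The differences among these 3 values were not tested. Mrps18c was at 16.6, 13.5, 13.4 and 11.5 CPM in wtGMP and at 9.97, 16.7, 45.2 and 10.6 CPM in LTearly, where replicate 3 alone was high.

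Of the other genes singled out by role, Mrps12, which encodes a protein of the decoding centre, was at 16.9, 10.8, 20.6 and 4.46 CPM in wtGMP and at 2.14, 8.08, 2.17 and 3.42 CPM in LTearly. The groups overlapped through 1 library on each side, and its log2 fold change of -1.74 ± 0.66 did not pass the test (edgeR adjusted p = 0.0643). Mrpl47 (-1.79 ± 0.75), Mrps28 (-0.68 ± 0.56), Mrps30 (-0.63 ± 0.35) and Mrpl55 (-0.64 ± 1.03) did not pass either. Mrps36, the dehydrogenase component, was at 8.79 ± 3.44 CPM (SD, n = 4) in wtGMP and 8.15 ± 1.89 CPM (n = 4) in LTearly, with a log2 fold change of -0.12 ± 0.59.

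**Figure D3:**
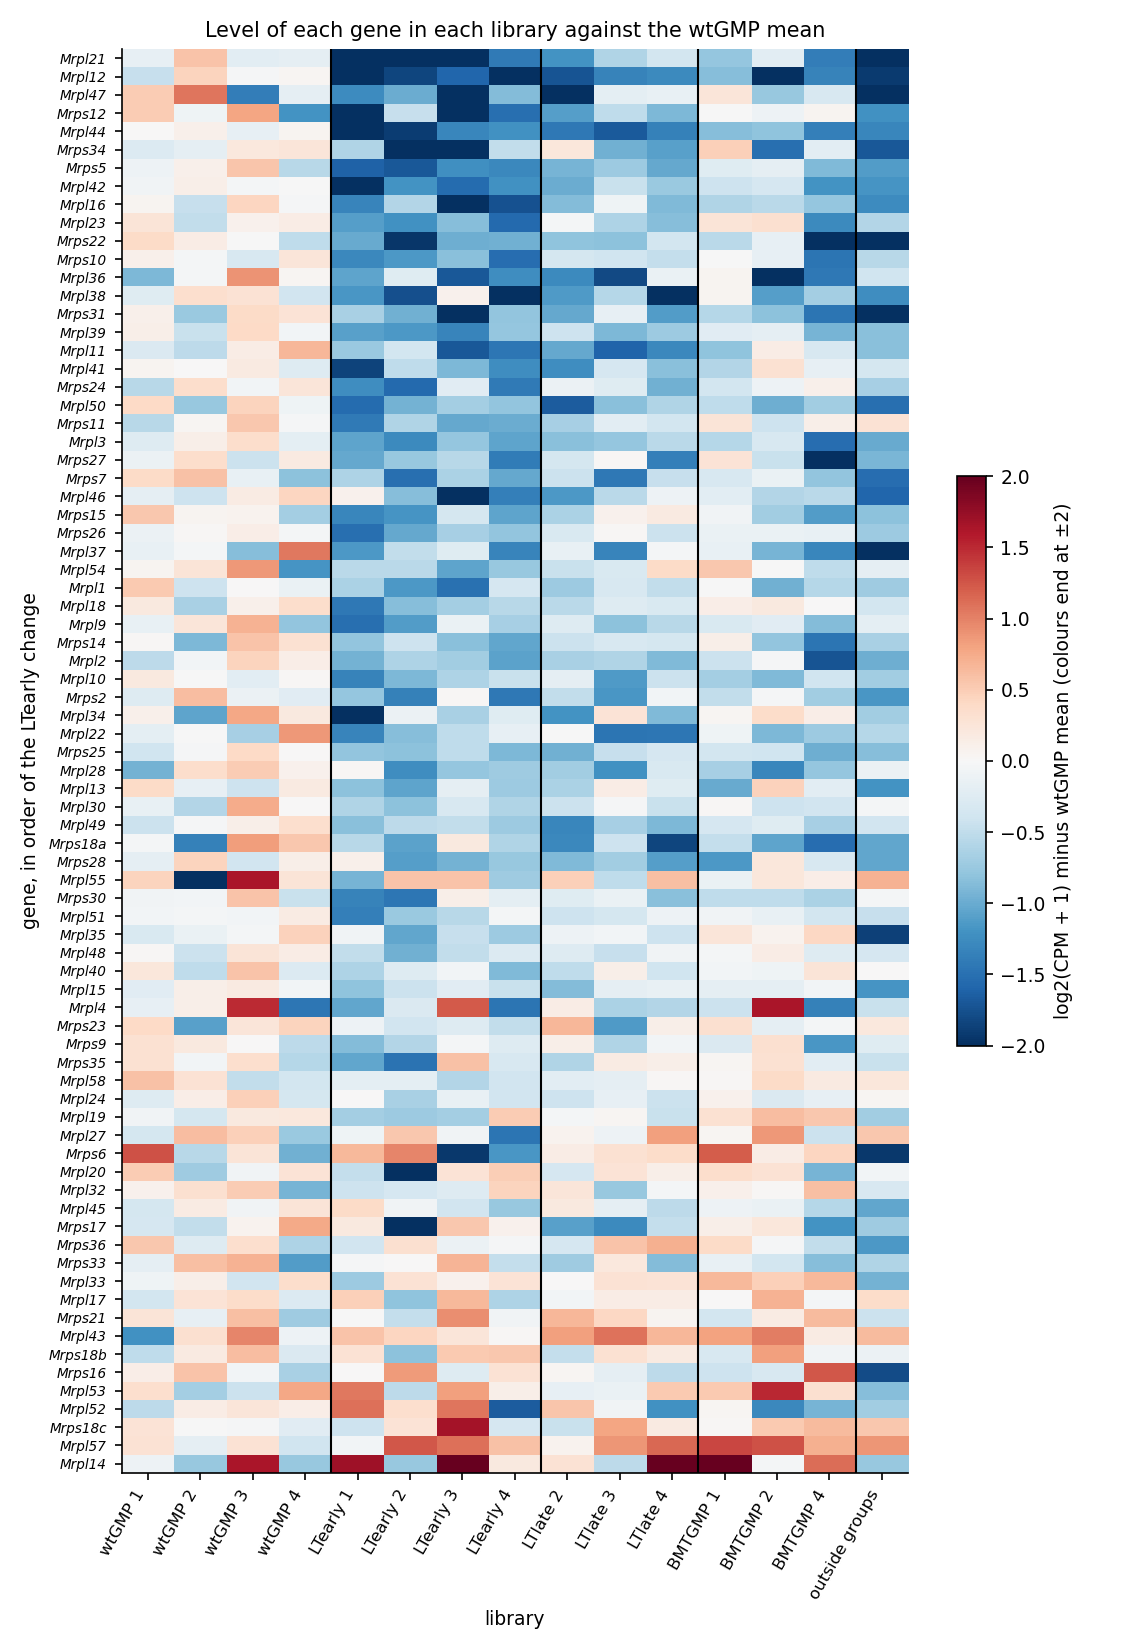
Log2(CPM + 1) of each of the 78 genes (rows, in the order of their log2 fold change in LTearly against wtGMP) minus the gene's wtGMP mean, in each of the 15 libraries (columns, with lines between groups), blue for lower and red for higher, with colours ending at ±2. The median over the 78 genes is -0.81 to -0.50 in the LTearly columns, -0.44 to -0.33 in LTlate, -0.50 to -0.08 in BMTGMP and -0.70 in the library outside the groups.

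The promoters of these genes were read because many members fell together. The RefSeq promoter table (GRCm38.p6, 250 bases before to 50 bases after each start) held 75 promoters of 69 of the 78 genes, the 21 that fell in LTearly among them. Each was searched on both strands for 5 short motifs of factors known to act at genes of mitochondrial proteins or of growth. The core of ETS factors such as GABP (CCGGAAG) stood in 26 promoters (34.7%), against 15.1% of 14723 promoters of the genes tested. The YY1 core (AAGATGGC) stood in 12 (16% against 3.86%) and the NRF1 core (GCGCATGC) in 8 (10.7% against 4.55%). The E-box (CACGTG) stood in 7 (9.33% against 9.05%) and the cAMP response element (TGACGTCA) in 2 (2.67% against 2.72%). Of the 21 genes that fell in LTearly, 5 held the ETS core, 5 the YY1 core, 1 the NRF1 core, 1 the E-box and 2 the cAMP response element. Of the 48 other matched genes, 21, 7, 7, 4 and 0 did, in the same order, and these differences were not tested. A match of letters describes these windows and is not evidence of binding.

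The 150 bases before the start are shown, 5′ to 3′ on the gene's strand, for 6 genes that fell in LTearly. Mrpl12 and Mrps5, which fell in LTearly and LTlate, show windows with none of the 5 motifs. Mrpl3, Mrps22 and Mrps26 show the ETS core close to the start, its first base 19, 11 and 14 bases before it, in Mrps26 as the reverse complement. Mrpl39 shows 2 overlapping NRF1 matches, 1 on each strand, from 125 and 123 bases before the start. Capitals mark the motif matches. The positions on GRCm38.p6 are chr11:120484487-120484636 on the plus strand for Mrpl12, chr2:127587276-127587425 on the plus strand for Mrps5, chr9:105053118-105053267 on the plus strand for Mrpl3, chr9:98601680-98601829 on the minus strand for Mrps22, chr2:130563607-130563756 on the plus strand for Mrps26 and chr16:84735245-84735394 on the minus strand for Mrpl39.
Mrpl12: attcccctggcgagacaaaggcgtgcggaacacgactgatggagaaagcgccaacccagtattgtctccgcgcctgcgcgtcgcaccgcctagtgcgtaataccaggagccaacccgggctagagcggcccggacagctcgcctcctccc
Mrps5: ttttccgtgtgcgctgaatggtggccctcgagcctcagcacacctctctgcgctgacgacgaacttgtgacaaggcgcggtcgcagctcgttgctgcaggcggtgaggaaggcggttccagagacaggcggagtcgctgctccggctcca
Mrpl3: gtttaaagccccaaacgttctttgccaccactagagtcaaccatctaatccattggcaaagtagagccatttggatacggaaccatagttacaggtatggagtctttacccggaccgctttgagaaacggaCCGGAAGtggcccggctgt
Mrps22: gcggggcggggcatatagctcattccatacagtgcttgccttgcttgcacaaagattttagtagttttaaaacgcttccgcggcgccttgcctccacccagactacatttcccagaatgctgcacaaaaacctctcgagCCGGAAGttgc
Mrps26: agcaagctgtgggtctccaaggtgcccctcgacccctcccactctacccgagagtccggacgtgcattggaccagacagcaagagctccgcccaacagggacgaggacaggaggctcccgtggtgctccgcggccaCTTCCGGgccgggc
Mrpl39: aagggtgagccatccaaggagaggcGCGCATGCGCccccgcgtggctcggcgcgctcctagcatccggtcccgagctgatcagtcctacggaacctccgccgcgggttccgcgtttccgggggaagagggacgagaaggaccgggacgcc

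In LTlate against wtGMP, 4 of the 78 genes fell and none rose: Mrpl12, Mrpl44, Mrpl49 and Mrps5. All 4 also fell in LTearly, a comparison that shares the wtGMP libraries. Of all genes tested, 3.01% fell and 7.65% rose, against 5.13% and 0% of the ribosomal genes, so the share that fell was near the background. The median log2 fold change was -0.48 over the 78 genes and 0.01 over all genes. Of the 78 values, 69 were below 0 (88.5%, against 49.6% of all genes). At an unadjusted p under 0.05, 14 were lower (17.9%, against 9.72% of all genes) and 0 higher (14.3% of all genes). DESeq2 called 9 lower (11.5%, against 6.61%) and 0 higher (against 10.2%). Without LTlate replicate 2 no gene passed (0 of 78), and with only these groups in the fit 10 did.

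Mrpl44 was at 12.2, 10.1 and 13 CPM in LTlate, all below the lowest wtGMP library at 30.7 CPM (log2 fold change -1.56 ± 0.42, edgeR adjusted p = 0.0139). Mrpl12 was at 20.1, 26.7 and 27.7 CPM (-1.50 ± 0.37, edgeR adjusted p = 0.00632) and Mrps5 at 77.9, 90.1 and 72.4 CPM (-0.95 ± 0.25, edgeR adjusted p = 0.0106), again with no overlap with wtGMP. Mrpl49, a mitochondria-specific large-subunit gene that overlaps Syvn1, was at 82.0, 109, 120 and 141 CPM in wtGMP, at 61.5, 76.9, 78.2 and 66.3 CPM in LTearly and at 44.1, 69.8 and 59.0 CPM in LTlate. It fell in both, and it was the only one of the 4 with a lower mean in LTlate than in LTearly, a difference that did not pass the test (0.29 ± 0.24 in LTearly against LTlate). Without LTlate replicate 3 Mrpl44 did not pass (edgeR adjusted p = 0.0849), nor did Mrps5 without wtGMP replicate 3 (0.0634) or LTlate replicate 4 (0.0602). Over the 78 genes, 14 had every LTlate library below every wtGMP library, 17.9% against 10.6% of all genes.

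In BMTGMP against wtGMP, 1 gene fell and none rose. Of all genes tested, 2.17% fell and 4.35% rose, against 1.28% and 0% here. The gene was Mrpl12, at 37.6, 16.6 and 26.6 CPM in BMTGMP, all below the lowest wtGMP value of 49.5 CPM (log2 fold change -1.38 ± 0.37, edgeR adjusted p = 0.0179). The median over the 78 genes was -0.28, against 0.06 over all genes. Of the 78 values, 58 were below 0 (74.4%, against 46.9% of all genes) and 20 above. At an unadjusted p under 0.05, 8 were lower (10.3%, against 7.65% of all genes) and 2 higher (2.56%, against 11.7%). DESeq2 called 2 lower (2.56%, against 4.25%) and 0 higher (against 6.85%), so the shares that were lower were near or below the background. Without wtGMP replicate 2, BMTGMP replicate 2 or BMTGMP replicate 4, Mrpl12 no longer passed, with edgeR adjusted p up to 0.123 without BMTGMP replicate 2.

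In BMTGMP 3 genes had every library above every wtGMP library, 3.85% against 10.8% of all genes: Mrpl57, Mrpl33 and Mrpl19, all of the large subunit and named after their values were seen. Mrpl57 was at 10.9, 7.57, 10.8 and 6.37 CPM in wtGMP and at 23.4, 22.4 and 14.8 CPM in BMTGMP, with a log2 fold change of 1.17 ± 0.48 (edgeR adjusted p = 0.174). Mrpl33 was at 80.7, 72.0 and 81.1 CPM in BMTGMP, above all 4 wtGMP libraries (0.58 ± 0.27, edgeR adjusted p = 0.225). Mrpl19, which overlaps Gcfc2, was at 45.2, 37.0, 54.4 and 55.1 CPM in wtGMP and at 58.9, 73.2 and 69.2 CPM in BMTGMP (0.48 ± 0.30, edgeR adjusted p = 0.403). None of the 3 passed the test. In the other direction, 9 of the 78 genes had every BMTGMP library below every wtGMP library, 11.5% against 8.47% of all genes. BMTGMP replicate 4 held 36 genes below every wtGMP library, and replicates 1 and 2 held 16 and 22. The share of all genes was not counted for single libraries, so these numbers have no background here. Replicate 4 also had the lowest cytosolic ribosomal protein sum of its group, at 22967 CPM against 33395 and 38576 CPM.

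**Figure D4:**
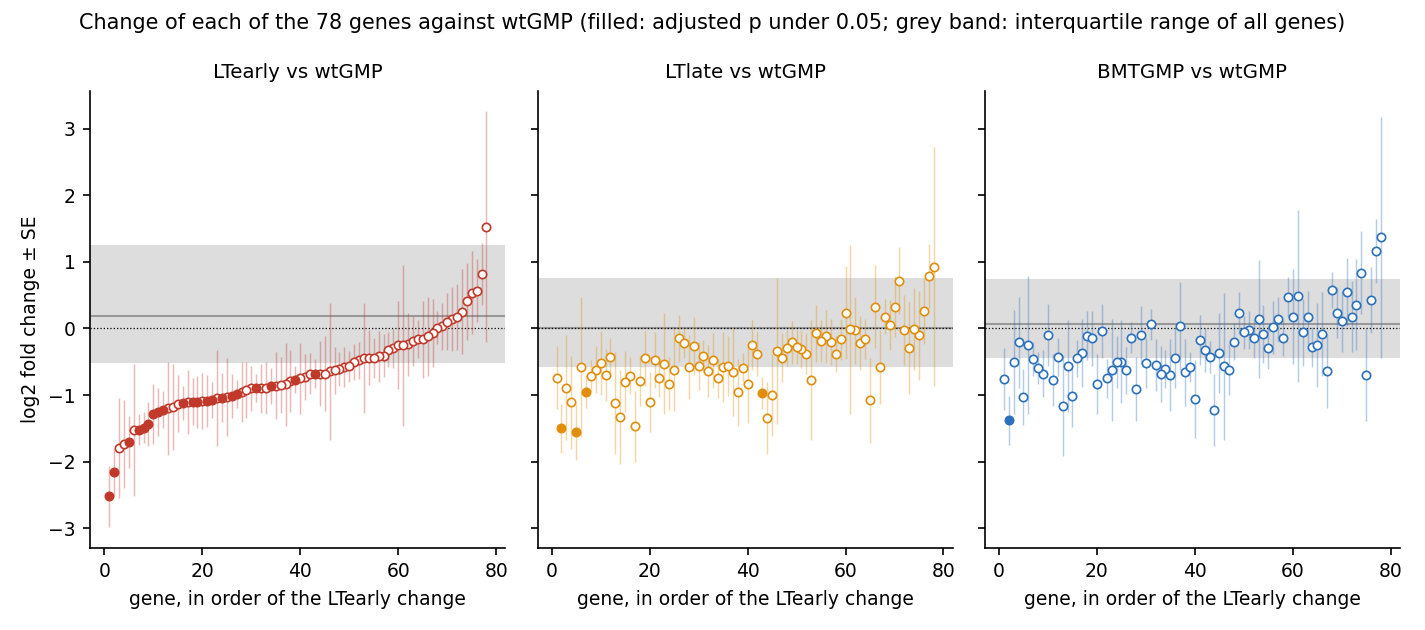
Log2 fold change ± SE against wtGMP (vertical axis) of each of the 78 genes in LTearly, LTlate and BMTGMP, in the order of the LTearly change on all 3 horizontal axes, filled where the adjusted p was under 0.05, with the median and interquartile range of all genes tested as a grey line and band. The 3 panels share the wtGMP libraries, and 67, 69 and 58 of the 78 points lie below 0.

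Among the mutant groups, 5 genes were lower in LTearly than in BMTGMP and none was higher: Mrps5, Mrpl18, Mrps26, Mrpl42 and Mrpl21. Of all genes tested, 3.03% were lower and 3.27% higher, against 6.41% of the ribosomal genes lower. Mrps5 was at 126, 131 and 80.6 CPM in BMTGMP, above every LTearly library (log2 fold change -1.06 ± 0.24, edgeR adjusted p = 0.00774). Mrpl18, which lies beside and overlaps Tcp1, was at 176, 185 and 161 CPM in BMTGMP and at 58.8, 88.9, 99.9 and 109 CPM in LTearly (-0.96 ± 0.23, edgeR adjusted p = 0.00945). Mrps26 was nearly constant in BMTGMP, at 97.0, 96.9 and 95.6 CPM (-0.84 ± 0.22, edgeR adjusted p = 0.0225). The median over the 78 genes was -0.41 and over all genes 0.07, with 70 values below 0 (89.7%, against 46.3% of all genes). At an unadjusted p under 0.05, 18 were lower (23.1%, against 9.7% of all genes) and 0 higher (10.5% of all genes), and DESeq2 called 5 lower (6.41%, against 3.89%) and 0 higher (against 7.06%). Without LTearly replicate 1, BMTGMP replicate 1 or BMTGMP replicate 2 in turn, 2 genes were called, and with only these groups in the fit also 2. Mrpl18 and Mrps5 passed under all 17 alternative settings.

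Between LTearly and LTlate no gene was called (edgeR, 0 of 78 in either direction), where 0.138% of all genes were lower and 0.124% higher in LTearly. At an unadjusted p under 0.05, 8 were lower in LTearly (10.3%, against 5.98% of all genes) and 0 higher (6.4% of all genes), and DESeq2 called 0, against 0.572% of all genes lower and 1.31% higher. The median was -0.27 over the 78 genes and 0.07 over all genes. Mrpl21 had the lowest value, -1.78 ± 0.47, with LTearly at 1.45 to 16.7 CPM and LTlate at 19.6, 29.9 and 35.4 CPM (edgeR adjusted p = 0.0984). Without LTearly replicate 4, 1 gene was called. Library titles of the mutant groups carry codes that the labels do not explain, made of an M part and a gr part. LTearly and LTlate share 2 of the gr parts. Some M parts also recur across groups. That of LTearly replicate 2 is shared with LTlate replicates 3 and 4, and that of LTearly replicates 1 and 4 with BMTGMP replicate 2. The summed level was 1676 CPM in LTearly replicate 1 and 2408 CPM in LTlate replicate 3, which share a gr part. It was 2156 CPM in LTearly replicate 3 and 2130 CPM in LTlate replicate 2, which share another. The library outside the groups, at 1923 CPM, carries the gr part of LTearly replicate 3 and LTlate replicate 2. Its M part is that of LTearly replicates 1 and 4 and BMTGMP replicate 2. BMTGMP replicates 1 and 2, at 2791 and 2864 CPM, share a gr part, and replicate 4, at 2146 CPM, carries another. By the M part, BMTGMP replicates 1 and 4 are alike and replicate 2 differs. The part of the codes in these levels was not tested. No wtGMP title carries a code, so in comparisons with wtGMP the code and the group cannot be told apart. LTlate against BMTGMP likewise had 0 of 78 calls by edgeR, against 0.447% of all genes lower and 1.64% higher, with 1 gene at an unadjusted p under 0.05 (Mrpl49, lower in LTlate; 1.28%, against 4.97% of all genes lower and 7.07% higher) and 0 by DESeq2 (against 1.49% lower and 2.95% higher). The median was -0.15 over the 78 genes and -0.04 over all genes. Simulated counts of these comparisons gave back 12% and 9% of genes changed 2-fold, so most such changes in simulated counts were missed. Those changed genes were drawn from all genes tested, and the recovery for the 78 genes alone was not simulated.

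Other genes of mitochondrial translation were read in the same fit. In LTearly against wtGMP, 2 of 6 mitoribosomal proteins without an Mrp symbol fell: Gadd45gip1, a large-subunit protein also known as CRIF1, and Ptcd3, of the small subunit. Gadd45gip1 was at 183 ± 24.7 CPM (SD, n = 4) in wtGMP and 80.2 ± 15.5 CPM (n = 4) in LTearly, with edgeR adjusted p = 7.79e-05, and also fell in LTlate (adjusted p = 0.00275) and BMTGMP (0.0409). Of 13 translation factors, 5 fell (38.5%) and none rose (median -0.83). They were Lrpprc, which stabilises mitochondrial mRNA, the elongation factors Gfm1, Tufm and Tsfm, and Taco1, an activator of translation. Lrpprc was at 139 ± 29.1 CPM (n = 4) in wtGMP and 55.5 ± 7.09 CPM (n = 4) in LTearly (log2 fold change -1.33 ± 0.22, edgeR adjusted p = 7.16e-05).

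Of 27 factors of ribosome assembly and rRNA modification, 3 fell in LTearly (Mrm3, Gtpbp10 and Fastkd2, median of the list -0.39), and of 21 genes of mitochondrial aminoacyl-tRNA synthesis 2 fell (Iars2 and Yars2, median -0.89). These shares of 11.1% and 9.52% were near the 9.46% of all genes that fell. Of 18 genes of mitochondrial transcription and genome upkeep, 5 fell (27.8%: Twnk, Ssbp1, Tfam, Elac2 and Pnpt1, median -0.20). Twnk, the mitochondrial DNA helicase, overlaps Mrpl43, and the values of this pair differed: Twnk had a log2 fold change of -1.67 ± 0.32 and Mrpl43 of 0.14. Of 13 regulators of mitochondrial biogenesis and protein quality, 5 fell (38.5%, median -0.35), led by the coactivator Pprc1, from 46.3 ± 18 CPM (SD, n = 4) to 8.09 ± 4.85 CPM (n = 4), and the transcription factor Myc, from 83.3 ± 22.5 to 33.9 ± 11.2 CPM (edgeR adjusted p = 8.95e-05 and 0.000666). By edgeR no gene of these lists rose in LTearly, and DESeq2 called 1 higher, in the list of transcription and genome upkeep.

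The cytosolic ribosome and complex I were also lower in LTearly. Of 83 cytosolic ribosomal protein genes tested, 64 fell and none rose in LTearly, with a median log2 fold change of -0.72, close to the -0.76 of the mitochondrial set. The levels of the cytosolic genes were far higher, summing to 37675 to 39891 CPM in wtGMP and 19742 to 31046 CPM in LTearly. The part of level in the larger share called was not tested. In LTlate 3 of the cytosolic genes fell (3.61%, median -0.30) and in BMTGMP 2 (2.41%, median -0.32). Of 38 complex I subunit genes, 10 fell in LTearly (26.3%, median -0.58), 2 in LTlate (5.26%) and 1 in BMTGMP (2.63%). The shares called in LTlate and BMTGMP were near the 3.01% and 2.17% of all genes that fell there. By other measures the cytosolic genes were lower there too. Of the 83, 80 had a log2 fold change below 0 in LTlate (96.4%, against 49.6% of all genes). In BMTGMP 81 did (97.6%, against 46.9%). For 54.2% of the cytosolic genes every LTlate library lay below every wtGMP library, against 10.6% of all genes. In BMTGMP that held for 22.9%, against 8.47%. The strongest complex I gene was Ndufa5, from 71.0 ± 12.4 CPM (SD, n = 4) to 24.4 ± 4.23 CPM (n = 4; edgeR adjusted p = 4.16e-05). No difference between these lists was tested.

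**Figure D5:**
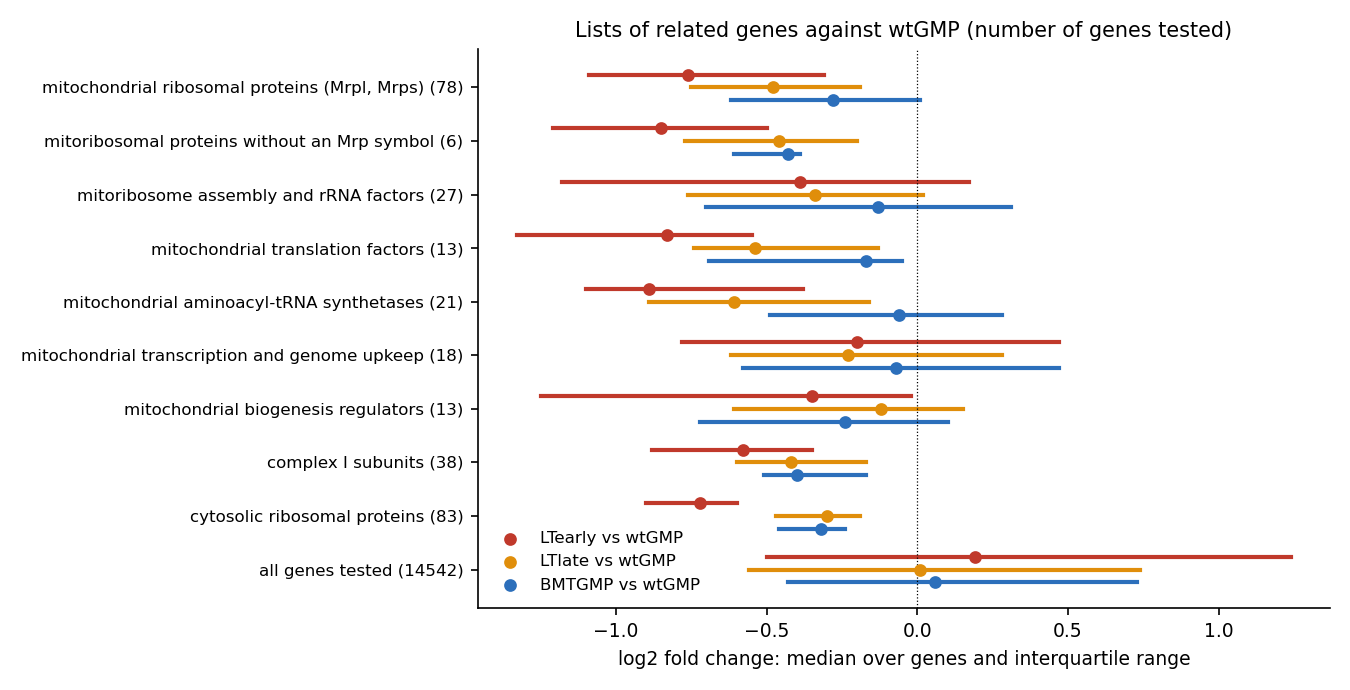
Median log2 fold change against wtGMP (points) and interquartile range (bars) for the 78 mitochondrial ribosomal protein genes, 8 related lists and all genes tested, in LTearly, LTlate and BMTGMP, with the number of genes tested in brackets. In LTearly every list has its median below 0, from -0.89 to -0.20, while all genes have theirs at 0.19.

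In the library outside the groups, 45 of the 78 genes lay below every wtGMP library. The LTearly libraries held 36 to 49 such genes and the LTlate libraries 32 to 34. The share of all genes was not counted for single libraries, so these numbers have no background here. Mrps5 was at 67.8 CPM, Mrpl12 at 17.4, Mrpl21 at 9.89, Mrpl42 at 71.6 and Mrpl44 at 13.5 CPM, each below all wtGMP libraries. Mrpl21 and Mrpl12 lay within the LTearly range and below all 3 LTlate libraries. Mrps5 and Mrpl42 lay above every LTearly library and below every LTlate library. Mrpl44 lay within the LTearly range and above all 3 LTlate libraries. Counting the library as LTlate raised the number of genes lower there from 4 to 9.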

How the data were processed

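Total RNA of sorted mouse bone marrow cells (150 ng per library) was made into libraries with a low-input kit, per the labels' protocols. The authors counted reads on RefSeq transcripts, and the build mm9 and Bowtie 0.9.9.1 are named, per the submitters' processing notes. Deposited values are expected counts: 13.75% are not whole (tolerance 1e-06), and per the file headers up to 100 hits per read were kept, so reads shared with a pseudogene or a paralog can be split. Whether counting used the strand is not given in the sources used here.

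Of 28847 transcripts, 26092 were matched to a symbol (25977 in a RefSeq table, 115 in GENCODE), and unmatched ones held 3.51% to 4.16% of the counts. Of 16 columns, 1 matched no sample and was not used. The transcript with the highest mean count stood for each gene. No 2 libraries were identical. Expected counts were rounded and tested with edgeR 4.0.16 in R 4.3.3 (TMM scaling, filterByExpr, robust quasi-likelihood fit of 14 libraries in 4 groups, two-sided, Benjamini-Hochberg over 14542 genes). CPM values use the TMM library sizes, and a called gene is 1 with an adjusted p under 0.05. DESeq2 1.42.0, other scalings, other filters, summed transcripts, fits of only the groups compared, a replicate block and leaving out each library were alternatives. The pipeline was tested on simulated data with 200 changed genes.

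Same-numbered libraries did not deviate together (18 pairs, correlations -0.162 to 0.115). The 78 genes and all lists were chosen with earlier results of these data known. Named were, per comparison with wtGMP, the 6 called genes with the smallest p and the 4 with the largest change, 12 genes chosen by role, the 3 highest and 3 lowest levels per kilobase, and between mutant groups the 4 with the smallest p. The related lists name up to 4 genes by p, and any beyond those were named after their values were seen. Kinase, binding protein and assembly factor genes caught by the patterns for cytosolic ribosomal proteins and complex I were left out. Subunit classes come from general knowledge of the mitochondrial ribosome. No protein sequences were used here.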

Additional observations from a re-analysis of the deposited data

Results flagged for a closer look

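A library far from the other 3 of its group was looked for in 72 sets of 4 values, and chance flags about 1 in 20 of them. Summed over the 78 genes, wtGMP replicate 3 stood at 3696 CPM against 3046 to 3146 CPM in the others. For Mrpl14, wtGMP replicate 3 stood at 4.26 CPM against 0 to 0.576 CPM. For Mrpl19, LTearly replicate 4 stood at 68.0 CPM against 28.2 to 29.3 CPM. For Mrpl21, wtGMP replicate 2 stood at 68.5 CPM against 39.4 to 40.9 CPM. For Mrps22, LTearly replicate 2 stood at 11.5 CPM against 22.8 to 23.6 CPM, and for Mrps24, LTearly replicate 3 stood at 24.6 CPM against 9.12 to 11.6 CPM. The library outside the groups held 2 of the named genes above every wtGMP library: Mrps18c at 20.3 CPM against 11.5 to 16.6 CPM, and Mrpl57 at 16.8 CPM against 6.37 to 10.9 CPM.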

How the results depend on the processing

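Of the 21 genes lower in LTearly than in wtGMP, 11 stayed below the threshold in all 18 alternatives, and all 21 kept their sign. Leaving out 1 library gave 12 to 22 genes, the lowest without wtGMP replicate 3. For LTlate against wtGMP, DESeq2 gave 9 genes, the outside library counted as LTlate 9, only the compared groups 10, and leaving out 1 library 0 to 5, with 0 without LTlate replicate 2. For BMTGMP, DESeq2 gave 2, and leaving out 1 library 0 to 1. LTearly against LTlate gave 1 without the filter on low counts and 0 to 1 with 1 library left out. LTearly against BMTGMP gave 2 with only the compared groups, 3 with transcripts summed, and 2 to 6 with 1 library left out. The cause was not tested. The numbers of higher genes stayed at 0 in all alternatives run.

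With the replicate number as a block the 6 comparisons gave 19, 4, 0, 0, 5 and 0 lower genes (LTearly, LTlate and BMTGMP against wtGMP, LTearly against LTlate and BMTGMP, LTlate against BMTGMP), so that Mrpl12 in BMTGMP was lost. The labels give the numbers no meaning, and 1 of 18 pairs exceeded a correlation of 0.1. Some titles of the mutant groups also share parts of a code that the labels do not explain, and no block was fitted on them.

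Median-ratio scaling moved the all-gene median in LTearly against LTlate from 0.07 to 0.19 and that of the 78 genes from -0.27 to -0.15, and the share of calls that were higher from 47.4% to 63%. In LTearly against BMTGMP that share moved from 51.9% to 63.5%. In LTearly against wtGMP, 16 of the 21 calls were kept.

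Some genes that passed no test changed sign without 1 library. Over the fits with 1 library left out, the log2 fold change of Mrpl55 ran from -1.02 to 0.20 in LTearly, from -0.76 to 0.45 in LTlate and from -0.97 to 0.24 in BMTGMP, each time above 0 only without wtGMP replicate 3. That of Mrps36 ran from -0.28 to 0.14 in LTearly and from -0.34 to 0.15 in BMTGMP, of Mrps18c from -0.12 to 0.79 in LTearly and from -0.12 to 0.54 in LTlate, of Mrps18b from -0.21 to 0.23 in LTlate and from -0.28 to 0.46 in BMTGMP, and of Mrps12 from -0.49 to 0.09 in BMTGMP. Mrpl14, Mrpl47, Mrpl55 and Mrps6 had grouped libraries at 0, at 2469452 to 15092528 counts per library.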
